A study of Mus musculus with 1615 samples.

Results

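The lymphatic endothelial cells described here were 87 of 1615 single cells of mouse colon, or 5.39% (exact 95% interval 4.34% to 6.60%). That interval covers counting error over the pooled cells only, and the share by mouse ran from 0% to 20.1%. The lymphatic cells were chosen by their own counts: at least 500 CPM (gene counts scaled to 1000000 in each cell) of Mmrn1 and Lyve1 together, at least 50 CPM of Flt4, under 500 CPM of Flt1 and under 100 CPM of Epcam. Mmrn1 encodes a secreted multimerin, Lyve1 a hyaluronan receptor and Flt4 the receptor VEGFR3, whereas Flt1 encodes VEGFR1 of blood vessels and Epcam an adhesion molecule of epithelium. The levels of these 5 genes in the chosen cells are therefore a description and not a finding. The series is an inventory of mural and stromal cells of the colon wall, sorted one per well from mice of 5 fluorescent reporter lines and sequenced by Smart-Seq2, which reads whole transcripts and counts reads rather than tagged molecules. Its 11 mice, 2 female and 9 male by their labels, were aged 8 to 30 weeks by the same labels, whereas the series text gives male mice of 8 to 21 weeks.

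Lymphatic cells were found in 6 of the 11 mice, all male. A mouse of the PDGFRbGFP line that was sorted on 2 plates, named below the 2-plate PDGFRbGFP mouse and listed first in the plots, gave 40 cells. Mouse 19CB27:3 of the CSPG4dsRED line gave 18 cells, mouse 19CB4:5 of the PDGFRbGFP line 12, mouse 18CB39:3 of the PDGFRaH2bGFP line 9 and mouse 18CB109:10 of the same line 5. The share of lymphatic cells in these 5 mice ran from 14.3% to 20.1%. The remaining 3 cells, 1.24% of those of their mouse, came from the male of the dual ACTA2GFP:CSPG4dsRED line, mouse 20GG79:6. Both female mice carried that dual line, and 0 of their 864 cells were lymphatic, which allows a share of up to 0.347%. The other 3 male mice also had 0 lymphatic cells, among 9 cells of 18CB155:7 (PDGFRbGFP), 5 of 19CB34:7 and 8 of 19CB38:5 (both ACTA2GFP), too few to limit the share closely. Every reporter marks mural or stromal cells rather than endothelium, and the sources used here name no sorting gates, so the share of lymphatic cells in a mouse describes what was sorted and not the tissue. Sex, line and plate cannot be told apart for that share, and no comparison of the sexes could be made.

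Lymphatic vessels of the gut wall take up fluid, immune cells and, in the small intestine, absorbed fat, and carry them to lymph nodes. Their endothelium arises largely from veins under the transcription factor PROX1, depends on VEGF-C signalling through VEGFR3, and draws dendritic cells with the chemokine CCL21. Blind-ended capillaries have loose, flap-like junctions, whereas collecting vessels have valves formed under FOXC2 and GATA2.

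Depth of the 87 cells ran from 48394 to 943761 gene counts, with a median of 196105 and a median of 4638 detected genes. The blood endothelial cells used for comparison had at least 500 CPM of Flt1 and 50 CPM of Cdh5, the vascular cadherin, with under 100 CPM of Epcam and under 500 CPM of Mmrn1 and Lyve1 together, and their median depth was 243837 counts. The 6 mice with lymphatic cells gave 97, 45, 38, 35, 22 and 16 of them. Mitochondrial transcripts took 0.909% to 2.51% of the lymphatic counts of each mouse. Counts were summed per mouse and class, since cells of 1 mouse are not replicates. The tests used the 5 mice in which each class had 5 or more cells, with 84 lymphatic cells in all. In the rest of the text, values of 5 mice stand in the order 2-plate PDGFRbGFP mouse, 18CB109:10, 18CB39:3, 19CB27:3 and 19CB4:5. The labels name 1 mouse per sum. With the mouse as a block, p-values set the mean difference between the classes against how far that difference varied from mouse to mouse. These mice were of several lines and each had its own plate or plates.

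Few cells lay near the edges of the gate. The lowest sum of Mmrn1 and Lyve1 inside was 555 CPM and the median 8406 CPM, while the 8 cells that failed on this sum alone reached at most 134.8 CPM. The lowest Flt4 inside was 88.1 CPM. There were 18 cells that failed on Flt4 alone, at up to 28.4 CPM, and 17 of these had at least 20 CPM of Ptprc, the leukocyte antigen CD45. For Flt1 the highest value inside was 383.6 CPM and 1 cell was kept out, at 1360 CPM. For Epcam the highest value inside was 41.3 CPM and 3 cells were kept out, the lowest at 241.3 CPM.

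**Figure D1:**
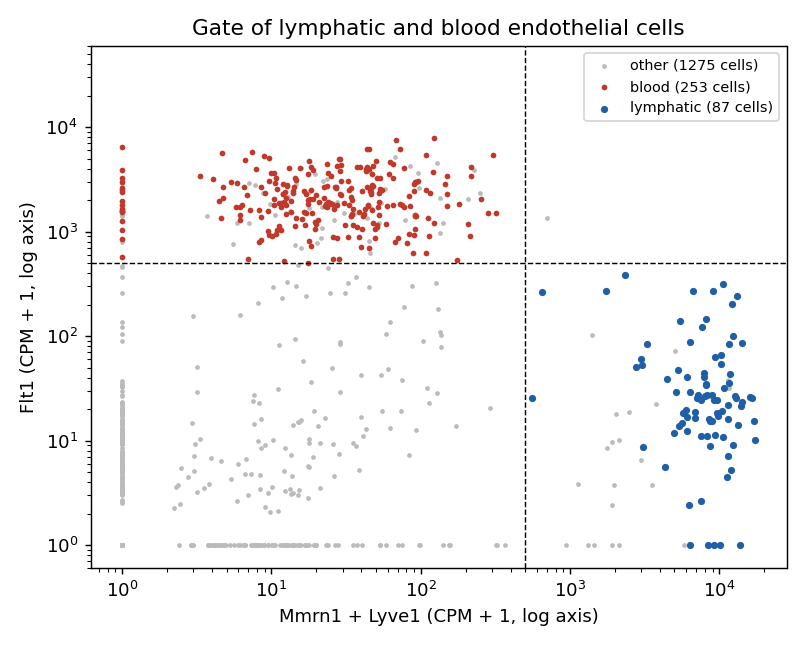
Summed Mmrn1 and Lyve1 against Flt1 in all 1615 cells, in CPM + 1 on log axes, with dashed lines at 500 CPM. The gates use both axes, so the 87 lymphatic cells (blue) and the blood endothelial cells (red) cannot overlap. The grey cells in the lower right part failed on Flt4 or Epcam.

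Lymphatic markers that the gate did not read were present as well. Of Mmrn1, Lyve1, Flt4, Reln, Ccl21a, Pdpn and Prox1, 62 of the 87 cells had counts of all 7 and every cell had counts of at least 5. The gate itself read Mmrn1, Lyve1 and Flt4, so this tally is partly set by the rule. Ccl21a was detected in 87 cells, Reln and Pdpn in 83 each and Prox1 in 66. Prox1, the master regulator of lymphatic identity, stood at 382.1, 245.3, 722, 266.4 and 342.9 CPM in the lymphatic sums of the 5 mice and at 0.872, 0.401, 0.196, 3.34 and 1.30 CPM in their blood endothelial sums. In the 3 cells of mouse 20GG79:6, which entered no test, it stood at 96.5 CPM, with Reln at 1797 CPM and Pdpn at 1048 CPM.

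Mouse 19CB4:5 held the most fibroblast RNA. Of 7 fibroblast genes (Dcn, Lum, Pdgfra, Col1a1, Col1a2, Col3a1 and Pi16), all 7 had counts in the lymphatic sums, and their summed level was 3041 CPM in that mouse against 38.9 to 313.5 CPM in the others. Its blood endothelial cells also held the most, 1422 CPM against 66.1 to 232.002 CPM. All 12 of its lymphatic cells had at least 2 markers of another class at 100 CPM or more, as did 4 of the 5 cells of mouse 18CB109:10 and 24 of the 87 cells in all, of which 20 held fibroblast markers, 6 smooth muscle, 3 immune, 1 pericyte and 1 epithelial markers. The summed immune markers reached 175.5 CPM in that mouse and 0 to 51.2 CPM in the others. The summed smooth muscle markers reached 483.9 CPM against 6.44 to 164.6 CPM. The summed epithelial markers were highest in the 2-plate PDGFRbGFP mouse, at 187.8 CPM against 0 to 43.6 CPM. Of the 7 pericyte genes Higd1b was at 0, and the list's sum of 12.9 to 486.6 CPM held Kcnj8, a potassium channel subunit, at 252.01, 1.93, 287.1, 19.5 and 285.8 CPM. Kcnj8 was called higher than in blood endothelium, with a log2 fold change of 5.68 ± 1.33 (SE; edgeR adjusted p = 0.0308), but not without the 2-plate PDGFRbGFP mouse, 18CB39:3 or 19CB4:5 (highest edgeR adjusted p 0.167). The glial list reached 11.6 CPM with Gfap at 0, and haemoglobin genes and mesothelial markers 0.648 and 1.03 CPM. Blood endothelial markers were not counted as those of another class. The part of other cells in the results below was not tested. The share of genes called, and the calls of some lists, are given also without the 24 cells, which leaves 3 mice with 5 or more lymphatic cells. The share is also given without mouse 19CB4:5.

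Sequence just upstream of the transcription start given by RefSeq was examined for the lymphatic markers. The RefSeq promoter table for GRCm38.p6 held 6 of the 7, with none for Lyve1. In the 250 bases before the start, both strands were searched for 3 short motifs known from endothelial regulators. These were AGGTCA, the half-site of nuclear receptors such as NR2F2, AGGAAG, a core of ETS factors, and ACAATG, a core of SOX factors. AGGTCA was found for Pdpn alone, AGGAAG for Ccl21a alone and ACAATG for Mmrn1 alone, so that each motif was in 1 of 6 markers. Over all 32841 windows of that length, 14.03%, 29.49% and 10.69% held the respective motif. A match is a description of letters and says nothing of binding. The windows of Ccl21a and Pdpn, markers that the gate did not use, are printed 5′ to 3′ on the gene's strand without the 10 bases next to the start, with the motif in capitals.
Ccl21a, minus strand, chr4:42774002-42774241: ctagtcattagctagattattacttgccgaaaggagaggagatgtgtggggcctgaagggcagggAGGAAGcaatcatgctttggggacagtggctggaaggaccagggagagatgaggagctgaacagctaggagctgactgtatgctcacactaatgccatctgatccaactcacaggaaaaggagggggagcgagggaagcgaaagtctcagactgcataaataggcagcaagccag
Pdpn, minus strand, chr4:143299575-143299814: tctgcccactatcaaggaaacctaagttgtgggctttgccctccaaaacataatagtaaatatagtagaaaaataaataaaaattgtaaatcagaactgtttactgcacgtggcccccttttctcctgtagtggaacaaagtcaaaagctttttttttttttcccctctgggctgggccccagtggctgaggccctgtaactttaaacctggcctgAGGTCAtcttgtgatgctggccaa
In the Ccl21a window AGGAAG lay on the side away from the start, and in the Pdpn window AGGTCA began 34 bases before it.

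Against all other cells of the same mouse, 48 of 4609 genes with a mean of at least 50 CPM in lymphatic cells (1.04%) were at least 8-fold higher in each of the 5 mice, on the log2(CPM + 1) scale. This count is a description, since the gate itself sets these cells against the rest, and 3 of the 48 were the gate's own Mmrn1, Lyve1 and Flt4. Leaving out 1 mouse gave 52 to 64 genes, each time with all 48 among them. The rule asks for the difference in every mouse, so leaving out 1 makes it easier to meet. The 10 genes outside the gate with the largest smallest difference were Pard6g, Prox1, Ackr2, Sh3gl3, Thy1, Gpm6a, Adgrg3, Reln, Igfbp5 and Lcn2. Pard6g encodes a member of the PAR polarity complex. Its level was 831, 1112, 560.5, 404.7 and 1099.6 CPM in lymphatic cells and averaged 3.96 CPM in all other cells, and its smallest log2 difference was 6.65. The smallest difference of Prox1 was 6.52, with an average of 0.961 CPM in the other cells. Thy1, a surface glycoprotein best known on T cells and fibroblasts, was at 442.2, 473.9, 776, 260.6 and 219.6 CPM in lymphatic cells and 1.72 CPM on average elsewhere. It was detected in 86 of the 87 cells. Lcn2, which encodes the siderophore-binding protein lipocalin 2, was at 1417, 964, 717, 906 and 948 CPM against an average of 8.76 CPM. Igfbp5, a binding protein of insulin-like growth factors, was at 1496, 1002, 4430.1, 1497 and 2454 CPM against 16.8 CPM. Against all other cells outside blood endothelium, 41 genes were counted, 35 of them among the 48. All but the 3 gate genes of the 48, that is 45, were also called higher than in blood endothelium in the test that follows. The other cells included the blood endothelial cells, so that test is not independent of this count.

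That test compared lymphatic with blood endothelial cells, the other endothelial class, within mice. Of 14076 genes tested, 515 were called (3.66%), with 1.48% of genes higher in lymphatic cells and 2.17% lower, by edgeR's quasi-likelihood test with Benjamini-Hochberg adjustment at 0.05 and the mouse as a block. The 6 genes of both gates were left out of it. Because cells were chosen by marker levels, genes that accompany the markers could be expected to differ, and the values show how far and in which mice. The median log2 fold change over all genes tested was -0.55, and single values are to be read against it. The unadjusted p was under 0.05 for 2287 genes. The share called was 2.18% without the 2-plate PDGFRbGFP mouse, 1.58% without mouse 19CB27:3, 2.04% without mouse 19CB4:5 and 1.92% without the 24 cells that held markers of another class, a fit on 3 mice. Of the 81 called genes the rule named, 54 kept their call whichever mouse was left out, and for those named below that did not, the mice concerned are given. Whether counting used strand is not given in the sources used here, so reads of named genes that overlap a gene on the other strand, such as Prox1, Il7, Reln, Nr2f2, Sox17, Col15a1, Jam3 and Timp3, cannot be told apart from those of that gene.

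**Figure D2:**
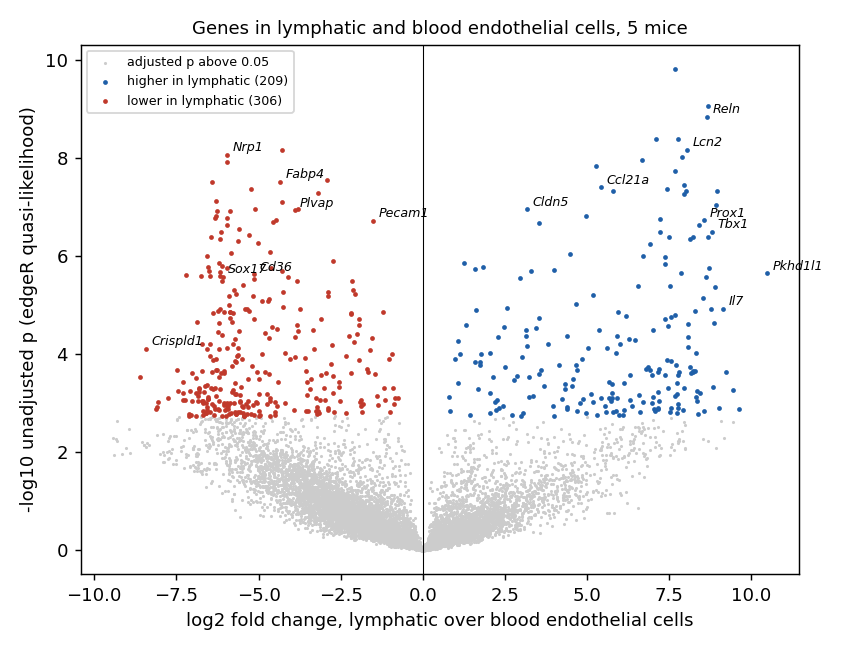
Log2 fold change of each tested gene, lymphatic over blood endothelial cells, against the unadjusted p on a -log10 scale, from 5 mice. Genes called higher are blue and those called lower red, with Pkhd1l1 farthest to the right among the labelled genes and Crispld1 farthest to the left.

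Genes were called in both directions on the list of lymphatic transcription factors, which also held the arterial factor Sox17. Of 20 tested, 3 were higher (Prox1, Nr2f2 and Tbx1) and 2 lower (Sox17 and Gata2), with a median of 0.01 over the list. Leaving out 1 mouse left 3 higher and 1 or 2 lower. Prox1 had a log2 fold change of 8.57 ± 0.90 (SE; edgeR adjusted p = 6.29e-05). Tbx1, a T-box factor needed for lymphatic growth in mice, was at 217.03, 46.4, 634, 88.5 and 233.6 CPM against 0.358, 0, 1.17, 0.303 and 0.866 CPM, with a log2 fold change of 8.80 ± 0.97 (SE; edgeR adjusted p = 9.17e-05). Its lymphatic values spread more than 10-fold between mice, and every one lay above every blood value. Nr2f2, which encodes the venous and lymphatic factor COUP-TFII, was at 414.9, 227.9, 358.7, 102.5 and 270.2 CPM against 18.8, 0.134, 16.4, 2.73 and 2.06 CPM, with a log2 fold change of 5.90 ± 1.01 (SE; edgeR adjusted p = 0.00349). Sox17, a factor of arterial endothelium, was at 4.18, 1.29, 2.44, 1.37 and 53.3 CPM against 301.3, 97.3, 519.7, 137.6 and 599.8 CPM, with a log2 fold change of -6.08 ± 0.80 (SE; edgeR adjusted p = 0.000407). Its highest lymphatic value was that of mouse 19CB4:5, and no value reached the blood range. Gata2, a factor of lymphatic valves, was at 118.6, 3.86, 0.813, 31.4 and 89.9 CPM against 289.9, 543, 251.4, 442.9 and 381.7 CPM, with a log2 fold change of -4.21 ± 1.01 (SE; edgeR adjusted p = 0.0351); the call held only when the 2-plate PDGFRbGFP mouse was the one left out (highest edgeR adjusted p 0.139). Sox18, which switches on Prox1 in the embryo, did not pass, at 856 ± 225.7 CPM (SD, n = 5) against 1211 ± 295.1 CPM.

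The receptors of vascular growth factors split by family member. Of 18 tested genes of VEGF and angiopoietin signalling, 1 was higher and 4 were lower, with a median of -0.57. Nrp1, the neuropilin that serves VEGF-A in blood vessels, was at 17.5, 16.7, 8.95, 23.2 and 167.4 CPM against 1284, 1688, 1045, 1508 and 2044 CPM, with a log2 fold change of -5.96 ± 0.49 (SE; edgeR adjusted p = 1.45e-05). Nrp2, the neuropilin that serves VEGF-C, went the other way, at 453.1, 287.1, 374.2, 503.1 and 724 CPM against 65.2, 52.3, 185.8, 132.5 and 114.1 CPM, with a log2 fold change of 2.14 ± 0.45 (SE; edgeR adjusted p = 0.0147). Each of the 5 lymphatic values of Nrp2 lay above all blood values, yet the call was lost without the 2-plate PDGFRbGFP mouse, 19CB27:3 or 19CB4:5 (highest edgeR adjusted p 0.0922). Ramp3, a partner of the adrenomedullin receptor, was at 4.32, 3.22, 2.44, 2.39 and 30.1 CPM against 306.3, 440.5, 378.1, 434.6 and 504.6 CPM, with a log2 fold change of -6.45 ± 0.72 (SE; edgeR adjusted p = 0.000103). Its relative Ramp2 did not pass and was at 810.04 ± 315.5 CPM (SD, n = 5) against 1097 ± 234.4 CPM. Ptprb, a phosphatase that damps the angiopoietin receptor TIE2, was at 324.2, 338.005, 159.4, 389.03 and 135.6 CPM against 1213, 1074, 1113, 1451 and 661 CPM, with a log2 fold change of -2.15 ± 0.29 (SE; edgeR adjusted p = 0.000456). Kdr, or VEGFR2, was at 619 ± 164.7 CPM against 1324 ± 161.5 CPM, with a log2 fold change of -1.18 ± 0.26 (SE; edgeR adjusted p = 0.0219), a call kept only without the 2-plate PDGFRbGFP mouse (highest edgeR adjusted p 0.0937). Flt4, a gate gene and so untested, was at 1447, 1455, 3408, 2129.9 and 1973 CPM in lymphatic and 134.96, 211.9, 255.7, 178.3 and 116.8 CPM in blood endothelium. The ligand Vegfc was near the detection limit in lymphatic cells, at 1.27 ± 2.61 CPM, and did not pass.

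Leukocyte traffic was the list with most genes higher. Of 26 tested genes of leukocyte traffic, 6 were higher and 3 lower, with a median of 0.17, and each leave-one-out fit also called 6 higher and 3 lower. Ccl21a, the ligand that guides CCR7-bearing dendritic and T cells, was at 983, 1019, 1452, 1669 and 1382 CPM against 57.8, 12.3, 8.81, 56.7 and 46.9 CPM, with a log2 fold change of 5.43 ± 0.50 (SE; edgeR adjusted p = 2.84e-05). Near-identical copies of Ccl21 lie beside it in the mouse genome, so its reads may be shared. Of these copies only Ccl21b is given here, at 0 in both classes, which says nothing of the others. Ackr2, a decoy receptor that clears inflammatory chemokines, was at 988, 601, 327.01, 729.6 and 586 CPM against 15.5, 0.535, 0, 1.82 and 6.28 CPM, with a log2 fold change of 8.23 ± 0.92 (SE; edgeR adjusted p = 0.000103). Il7, a survival factor of lymphocytes, was at 242.2, 419.8, 437.6, 206.3 and 67.3 CPM against 5.08, 0, 0, 0.91 and 0.108 CPM, with a log2 fold change of 9.13 ± 1.37 (SE; edgeR adjusted p = 0.00136). The lowest lymphatic value of Il7, in mouse 19CB4:5, still lay above the highest blood value. Pdpn, the mucin that engages CLEC2 on platelets and dendritic cells, was at 647, 610.3, 685.7, 1145 and 796 CPM against 1.86, 3.21, 1.37, 3.79 and 23.7 CPM, with a log2 fold change of 7.67 ± 0.67 (SE; edgeR adjusted p = 1.93e-05). Mrc1 and Stab1, scavenger receptors shared with macrophages, were the other 2 higher genes, at 107.2 ± 47.1 and 1095 ± 506.1 CPM (SD, n = 5) against 1.19 ± 1.87 and 71.8 ± 73.9 CPM. In these sums the 7 immune markers together reached at most 175.5 CPM, and 3 lymphatic cells held immune markers. Whether other cells added to Mrc1 and Stab1 was not tested.

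The 3 lower genes of leukocyte traffic were Cxcl12, Jam2 and Jam3. Cxcl12, the ligand of CXCR4, was at 132.2, 348.3, 141.5, 64.2 and 512.9 CPM against 2198, 4652, 4333, 2988 and 3846 CPM, with a log2 fold change of -4.28 ± 0.34 (SE; edgeR adjusted p = 1.33e-05). Jam2 and Jam3 encode junctional adhesion molecules that leukocytes bind. Jam2 was at 7.77, 7.73, 5.69, 8.88 and 59.2 CPM against 627, 1265, 761, 1129 and 843 CPM, with a log2 fold change of -6.41 ± 0.58 (SE; edgeR adjusted p = 2.66e-05). Jam3 had a log2 fold change of -5.28 ± 0.80 (SE; edgeR adjusted p = 0.00142), and its lymphatic values of 54.4, 3.22, 0.813, 39.3 and 51.1 CPM lay below all blood values. F11r, the third molecule of the family, did not pass and was at 825 ± 226.8 CPM against 757 ± 133.2 CPM. Spns2 and S1pr1, a transporter and a receptor of sphingosine-1-phosphate, did not pass either, with log2 fold changes of 0.28 ± 0.48 and -0.28 ± 0.31 (SE).

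Junction genes differed in both directions. Of 18 tested, 3 were higher and 5 lower, with a median of -0.27. Cldn5, the main claudin of endothelial tight junctions, was at 1002, 1118, 1385, 1465 and 1499.5 CPM against 107.4, 162.2, 262.4, 104.1 and 103.5 CPM, with a log2 fold change of 3.17 ± 0.32 (SE; edgeR adjusted p = 4.99e-05). Cavin2, a coat protein of caveolae, was at 2308, 1942, 1779.8, 3067 and 1826 CPM against 1056, 993, 777, 1108 and 1031 CPM, with a log2 fold change of 1.07 ± 0.19 (SE; edgeR adjusted p = 0.00418). Plvap, which forms the diaphragms of fenestrae, was at 332.5, 17.4, 581, 486.4 and 1247 CPM against 4216, 1281, 6635, 6748 and 6897 CPM, with a log2 fold change of -3.90 ± 0.39 (SE; edgeR adjusted p = 5.01e-05). Both classes of mouse 18CB109:10 held the least Plvap, and its blood value, 1281 CPM, lay just above the highest lymphatic value, that of mouse 19CB4:5. Esam, an adhesion molecule of blood vessel junctions, was at 133.5, 18.7, 151.3, 426.6 and 178.7 CPM against 1978, 1925, 1419, 1799 and 2105 CPM, with a log2 fold change of -3.82 ± 0.51 (SE; edgeR adjusted p = 0.000456). Pecam1, the pan-endothelial CD31, was at 964, 1069, 821, 1445 and 1405 CPM against 2438, 2978, 2429, 3961 and 3899 CPM, with a log2 fold change of -1.51 ± 0.16 (SE; edgeR adjusted p = 6.29e-05). The gap junction gene Gja4 had a log2 fold change of -2.98 ± 0.70 (SE; edgeR adjusted p = 0.0324), but its lymphatic value of 502.8 CPM in mouse 18CB109:10 lay within the blood range, and the call was lost without the 2-plate PDGFRbGFP mouse, 19CB27:3 or 19CB4:5 (highest edgeR adjusted p 0.156).

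**Figure D3:**
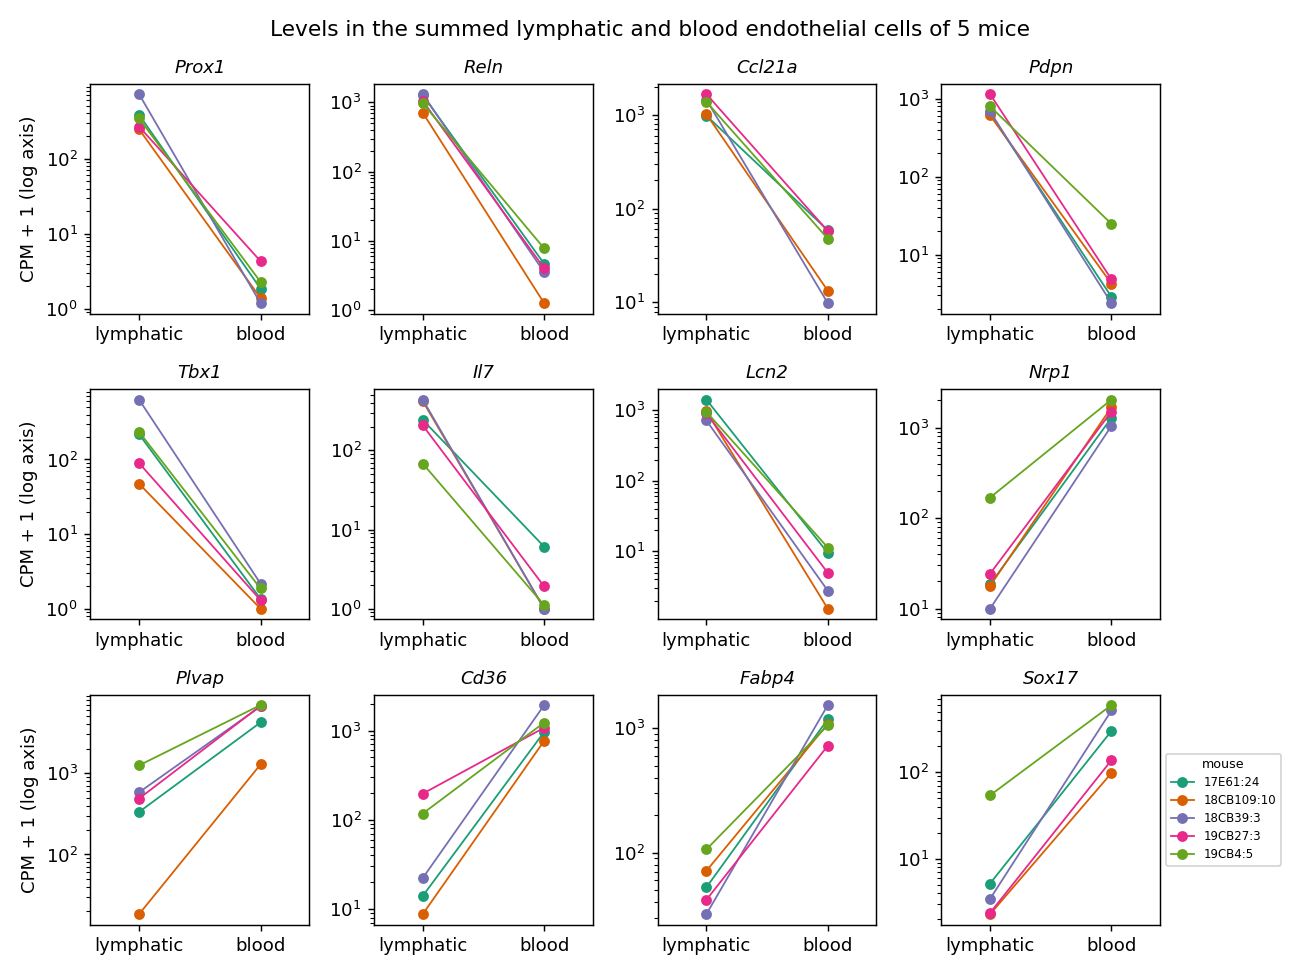
Level in the summed lymphatic and blood endothelial cells of each of 5 mice, in CPM + 1 on log axes, for 12 genes, with a line joining the 2 sums of a mouse. The first 7 genes were higher in lymphatic cells of every mouse and the last 5 lower, and mouse 19CB4:5 had the highest lymphatic level of Nrp1, Plvap, Fabp4 and Sox17.

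The basement membrane and its associated proteins differed in single components. Of 27 tested genes 4 were higher (Reln, Col18a1, Itga9 and Timp3) and 5 lower, with a median of -0.55. Reln, a secreted glycoprotein first known from neurons, was at 1278, 709, 1317, 1050.3 and 970.5 CPM against 3.69, 0.268, 2.55, 3.03 and 6.82 CPM, with a log2 fold change of 8.66 ± 0.62 (SE; edgeR adjusted p = 6.59e-06). Col18a1, the collagen from which endostatin is cut, was at 706, 1129, 783, 863 and 579.7 CPM against 24.9, 67.7, 28.4, 5.92 and 25.97 CPM, with a log2 fold change of 4.96 ± 0.51 (SE; edgeR adjusted p = 5.89e-05), while its closest relative Col15a1 was at 2.95, 2.58, 3.25, 1.37 and 27.99 CPM against 280.2, 237.5, 374.6, 285.6 and 146.5 CPM, with a log2 fold change of -6.20 ± 0.99 (SE; edgeR adjusted p = 0.00214). The 2 multiplexin collagens thus stood in opposite order in every mouse. Sparc and Sparcl1, matricellular proteins, were lower. Sparcl1 was at 48.4, 50.2, 34.2, 57.4 and 505.4 CPM against 2012, 2697, 2533, 2943 and 2810.3 CPM, with a log2 fold change of -5.24 ± 0.49 (SE; edgeR adjusted p = 2.84e-05), and mouse 19CB4:5 held the highest lymphatic value. Sparc had a log2 fold change of -3.79 ± 0.38 (SE; edgeR adjusted p = 4.99e-05). Timp3, an inhibitor of matrix proteases, was at 4491, 3963, 5297, 5745 and 3931 CPM against 1816, 1852, 1489, 2407 and 1954 CPM, with a log2 fold change of 1.25 ± 0.16 (SE; edgeR adjusted p = 0.000279). Syn3 overlaps it on the other strand. The type IV collagens and laminins did not pass, for instance Col4a1 at 699.97 ± 160.4 against 1132 ± 220.4 CPM and Lama4 at 616 ± 483.9 against 273.01 ± 97.9 CPM (SD, n = 5). Fbln2 and Hspg2, which encode fibulin 2 and perlecan, were the remaining lower genes, and Hspg2 lost its call without the 2-plate PDGFRbGFP mouse, 19CB27:3 or 19CB4:5 (highest edgeR adjusted p 0.156).

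Some secreted guidance cues were higher. Of 22 tested genes of the axon guidance families 4 were higher (Sema3d, Ntn1, Sema3a and Unc5b) and 2 lower (Robo4 and Epha4), with a median of -1.21. Ntn1, or netrin 1, was at 310.2, 668, 1231, 440.3 and 417.7 CPM against 0.962, 0.669, 4.70, 1.52 and 9.52 CPM, with a log2 fold change of 7.94 ± 0.73 (SE; edgeR adjusted p = 2.84e-05). Sema3d, a class 3 semaphorin, was at 532, 302.6, 283.1, 324.1 and 174.9 CPM against 1.66, 0.401, 0.196, 0.303 and 3.25 CPM, with a log2 fold change of 8.67 ± 0.97 (SE; edgeR adjusted p = 0.000103). Sema3a, which takes part in valve formation in mice, was at 176.5, 9.01, 47.2, 132.2 and 38.8 CPM against 0.38, 0.134, 0.587, 0.152 and 0.866 CPM, with a log2 fold change of 7.16 ± 1.46 (SE; edgeR adjusted p = 0.0125). It lost its call without the 2-plate PDGFRbGFP mouse or 19CB27:3 (highest edgeR adjusted p 0.0939). Unc5b, a netrin receptor, kept its call only without the 2-plate PDGFRbGFP mouse (highest edgeR adjusted p 0.147). Robo4, a receptor that steadies vessels, had a log2 fold change of -1.70 ± 0.34 (SE; edgeR adjusted p = 0.0115) and lost its call without mouse 19CB27:3 or 19CB4:5 (highest edgeR adjusted p 0.061). Epha4, an ephrin receptor, kept its call only without mouse 18CB109:10 (highest edgeR adjusted p 0.186). With mouse 19CB27:3 left out, 2 genes of this list were called higher and 0 lower.

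Genes of valves and collecting vessels gave 4 higher and 2 lower of 19 tested, with a median of 0.14. The higher genes included Itga9, Sema3a and Celsr1. Itga9, the integrin chain that valve leaflets need, was at 191.98, 450.7, 229.4, 63.5 and 328.3 CPM against 26.8, 1.61, 5.68, 2.12 and 22.3 CPM, with a log2 fold change of 4.83 ± 0.92 (SE; edgeR adjusted p = 0.00791). Celsr1, a planar polarity cadherin, had a log2 fold change of 8.42 ± 1.87 (SE; edgeR adjusted p = 0.026), and lost its call without mouse 18CB39:3 or 19CB27:3 (highest edgeR adjusted p 0.114). Foxc2, the valve factor, was at 168.2, 5.79, 0, 92.2 and 4.31 CPM against 15.8, 0, 0, 0.455 and 0 CPM and did not pass, with a log2 fold change of 6.35 ± 1.83 (SE; edgeR adjusted p = 0.0832). Leaving out mouse 19CB27:3 left 2 higher and 0 lower genes, and leaving out the 24 cells with markers of another class, in a fit on 3 mice, left 1 higher and 0 lower.

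Most tested markers of blood endothelium were lower. Of 27 tested, 15 were lower and 1 higher, with a median of -3.78, and leaving out 1 mouse left 12 to 15 lower. Cd34 was at 137.4, 321.3, 131.8, 151.99 and 349.9 CPM against 1222, 1852, 1502, 2642 and 1811 CPM, with a log2 fold change of -3.18 ± 0.30 (SE; edgeR adjusted p = 3.02e-05). Ly6a, or Sca-1, was at 170.5, 100.4, 73.2, 61.1 and 370.3 CPM against 1980.5, 2008, 2957, 2653 and 2061 CPM, with a log2 fold change of -4.28 ± 0.42 (SE; edgeR adjusted p = 3.99e-05). Others were the capillary genes Ly6c1, Car4, Rgcc and Aplnr and the tip-cell gene Esm1, with log2 fold changes from -6.52 for Car4 to -4.56 for Ly6c1. Eng, the co-receptor endoglin, differed less, at 823, 876, 964, 1782 and 1322 CPM against 2005, 2391, 2424, 2762 and 2820.5 CPM, with a log2 fold change of -1.20 ± 0.18 (SE; edgeR adjusted p = 0.00145). The exception was Aqp1, a water channel, which was higher, at 869, 437.8, 630.4, 781 and 1469 CPM against 9.10 to 421.2 CPM in blood endothelium, with a log2 fold change of 3.54 ± 0.73 (SE; edgeR adjusted p = 0.0131); it lost its call without mouse 19CB27:3 or 19CB4:5 (highest edgeR adjusted p 0.11). Emcn, often used to mark veins and capillaries, did not pass and was at 925 ± 320.9 CPM (SD, n = 5) against 1221 ± 233.5 CPM.

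Some fatty acid and cholesterol uptake genes were lower. Of 23 tested genes of lipid handling 5 were lower and 1 higher, with a median of -0.40. Cd36, a fatty acid translocase, was at 12.96, 7.73, 21.1, 195.03 and 116.3 CPM against 964, 766, 1929, 1074.9 and 1229 CPM, with a log2 fold change of -5.15 ± 0.67 (SE; edgeR adjusted p = 0.000383). Fabp4, a fatty acid carrier, was at 51.5, 70.2, 30.9, 40.6 and 104.96 CPM against 1181, 1083, 1533, 722 and 1052 CPM, with a log2 fold change of -4.35 ± 0.39 (SE; edgeR adjusted p = 2.66e-05). Scarb1, the receptor of high-density lipoprotein, was at 18.1, 8.37, 169.2, 40.6 and 152.3 CPM against 1217, 961, 1126, 1759 and 1960.2 CPM, with a log2 fold change of -5.01 ± 0.58 (SE; edgeR adjusted p = 0.00013). The lymphatic and blood ranges of all 3 were apart. Slc27a3, a fatty acid transporter, lost its call without mouse 19CB27:3 (highest edgeR adjusted p 0.0502), and Fabp5 kept its call only without mouse 18CB109:10 (highest edgeR adjusted p 0.175). The higher gene, Apold1, an endothelial early-response gene, kept its call only without the 2-plate PDGFRbGFP mouse (highest edgeR adjusted p 0.183). Gpihbp1, which anchors lipoprotein lipase to capillaries, did not pass, at 466.2 ± 234.2 CPM (SD, n = 5) against 170.6 ± 90.1 CPM.

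**Figure D4:**
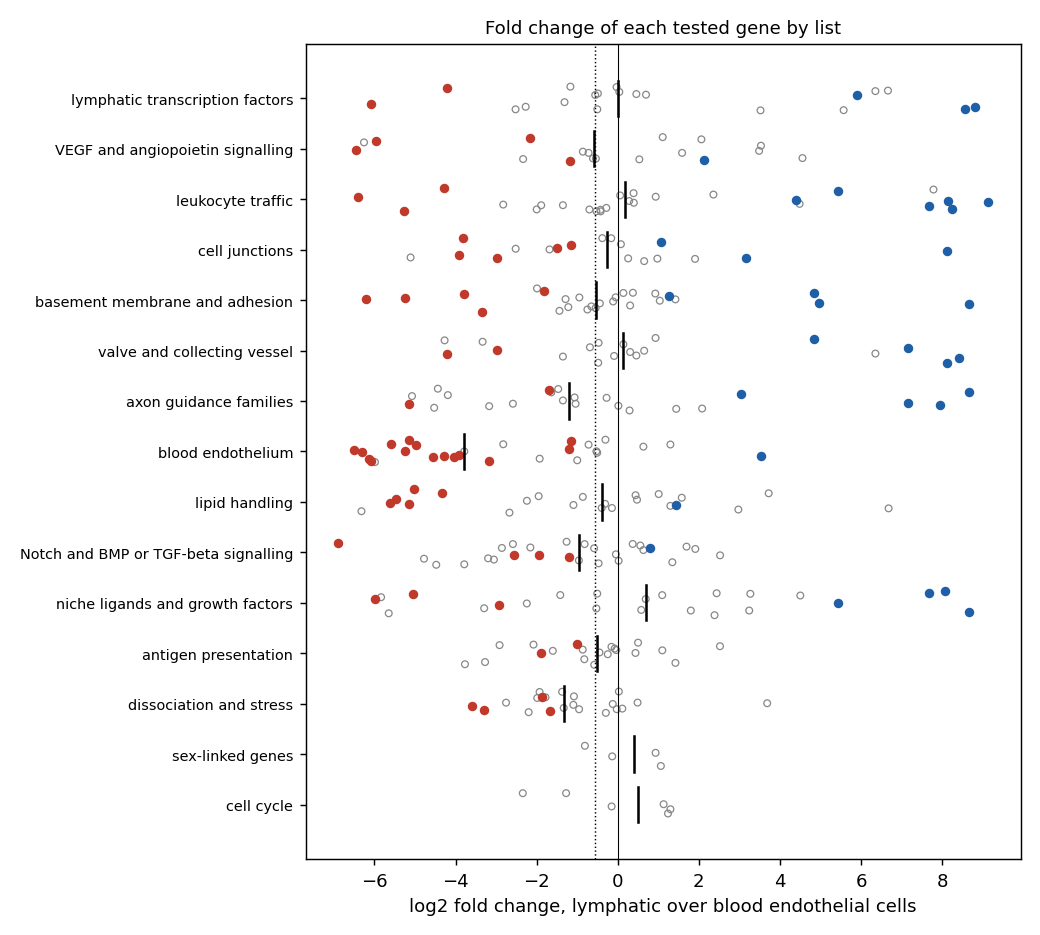
Log2 fold change of every tested gene in each list, lymphatic over blood endothelial cells, with filled points for genes called higher (blue) or lower (red), open points for the rest, a bar at each list's median and a dotted line at the median of all genes, -0.55. Blood endothelium genes lie furthest to the left, with a median of -3.78.

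Of 23 tested growth factors and niche ligands 4 were higher and 3 lower, with a median of 0.69, and 6 more fell under the filter on low counts. The higher genes were Reln, Ccl21a, Igfbp5 and Nts. Igfbp5 was at 1496, 1002, 4430.1, 1497 and 2454 CPM against 9.39, 4.55, 7.44, 5.16 and 35.1 CPM, with a log2 fold change of 7.67 ± 0.46 (SE; edgeR adjusted p = 2.07e-06), and its relative Igfbp7 was at 525, 113.3, 328.6, 282.8 and 864 CPM against 2978, 797, 3996, 3227 and 3331 CPM, with a log2 fold change of -2.92 ± 0.26 (SE; edgeR adjusted p = 2.66e-05). One lymphatic value of Igfbp7, that of mouse 19CB4:5, lay within the blood range, whose lowest value was that of mouse 18CB109:10. Nts, the peptide neurotensin, was at 64.2, 0, 308.3, 533 and 37.1 CPM against 0.268, 0, 0.196, 1.52 and 0.433 CPM, with a log2 fold change of 8.06 ± 1.25 (SE; edgeR adjusted p = 0.0022), and lost its call without mouse 19CB27:3 (highest edgeR adjusted p 0.0827). Rspo3, a WNT agonist of the crypt base, did not pass, at 51.3, 0, 0.813, 50.2 and 4.31 CPM against 0.0671, 0, 0.196, 0.759 and 1.41 CPM. Pdgfd, a ligand for mural cells, had a log2 fold change of -5.05 ± 1.03 (SE; edgeR adjusted p = 0.0126), a call lost without the 2-plate PDGFRbGFP mouse or 19CB27:3 (highest edgeR adjusted p 0.09). Edn1, or endothelin 1, lost its call whichever mouse was left out.

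Of 27 tested genes of Notch, BMP and TGF-beta signalling 1 was higher and 4 lower, with a median of -0.96. Jag2, a Notch ligand, had a log2 fold change of -6.89 ± 1.56 (SE; edgeR adjusted p = 0.0259), lost without the 2-plate PDGFRbGFP mouse, 18CB109:10 or 19CB27:3 (highest edgeR adjusted p 0.125). Id3, a BMP target, had a log2 fold change of -1.95 ± 0.37 (SE; edgeR adjusted p = 0.00824), lost without the 2-plate PDGFRbGFP mouse (edgeR adjusted p 0.0582). Acvrl1, the receptor ALK1, had a log2 fold change of -2.55 ± 0.55 (SE; edgeR adjusted p = 0.0176), lost without mouse 19CB27:3 or 19CB4:5 (highest edgeR adjusted p 0.0748). Tgfbr2 did not pass, at 1772 ± 635 against 1863 ± 894 CPM (SD, n = 5). The 20 genes of antigen presentation gave 0 higher and 2 lower, Irf1 and Tapbp, both lost whichever mouse was left out. Immediate-early and stress genes, which tissue dissociation can raise, gave 0 higher and 4 lower of 21, with a median of -1.33. One of the 4, Ier3, kept its call in all 5 leave-one-out fits, at 58.2, 7.08, 57.8, 38.3 and 183.5 CPM against 506.2, 442.7, 288.4, 425.2 and 714 CPM, with a log2 fold change of -3.31 ± 0.60 (SE; edgeR adjusted p = 0.00551). Nr4a1 lost its call without mouse 19CB27:3 (edgeR adjusted p 0.0614). In mouse 19CB4:5 it stood at 566 CPM in lymphatic cells against 13.02 to 42.9 CPM in the other mice.

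The largest fold changes were taken among called genes with 1 direction in every mouse and 50 CPM or more on average in whichever class was higher. Pkhd1l1, the paralog of the polycystic kidney disease gene Pkhd1, was at 71.5, 140.4, 439.3, 160.2 and 8.07 CPM against 0.112, 0, 0.392, 0 and 0 CPM, with a log2 fold change of 10.47 ± 1.36 (SE; edgeR adjusted p = 0.00037). Its lowest lymphatic value was that of mouse 19CB4:5. Gpm6a, a membrane glycoprotein of neurons, was at 724, 59.9, 602, 869.6 and 454.3 CPM against 1.36, 0, 0.196, 1.97 and 4.55 CPM, with a log2 fold change of 8.95 ± 0.84 (SE; edgeR adjusted p = 2.84e-05). Pard6g had a log2 fold change of 8.67 ± 0.59 (SE; edgeR adjusted p = 5.85e-06). Il7 and Tbx1, given above, were also among the 10 genes with the highest fold change. Kbtbd11, Apba2, Ston2, Sez6l and Slc45a3 completed them, with log2 fold changes from 8.70 to 8.94, and none of the 10 calls was lost when a mouse was left out. Sez6l was at 0.648, 53.4, 284.7, 77.2 and 333.7 CPM, so that the 2-plate PDGFRbGFP mouse, which gave the most cells, had hardly any.

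At the other end Crispld1, which encodes a secreted cysteine-rich protein, was at 0.144, 0, 0, 0 and 2.15 CPM against 31.2, 73.2, 142.6, 55.7 and 159.7 CPM, with a log2 fold change of -8.42 ± 1.52 (SE; edgeR adjusted p = 0.00544). Thrsp, a regulator of fatty acid synthesis known from liver, was at 9.72, 0, 0.813, 1.02 and 19.4 CPM against 571, 397.8, 260.04, 310.3 and 484.1 CPM, with a log2 fold change of -7.20 ± 0.94 (SE; edgeR adjusted p = 0.000398). Both kept their calls whichever mouse was left out. The 8 other genes of the 10 with the lowest fold change lost theirs in at least 2 leave-one-out fits: F2rl3, Ces2g and Akr1c14 without the 2-plate PDGFRbGFP mouse or 19CB27:3, S1pr4 without 19CB27:3 or 19CB4:5, Jag2 as given above, and Mfng, Ssh3 and Gulp1 whichever mouse was left out. Their lymphatic values were at most 14.5 CPM.

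Levels varied widely from cell to cell among the 87. Lyve1 had a median of 4152 CPM and was at 0 in 1 cell, of mouse 18CB39:3, which passed the gate on Mmrn1. Mmrn1 ran from 198.2 to 10156 CPM with a median of 3867 CPM, and Reln from 0 to 3666 CPM with a median of 973 CPM. Spearman correlations with Lyve1 over the 87 cells, centred within mice, were weak: over 4538 genes the highest was 0.39, for Aqp1, followed by Tmsb4x, Cyp4b1, Tppp3 and Rplp2, and the lowest -0.45, for Pxdn, followed by Taz, Atrn, Dele1 and Elf4. These are descriptions over sparse counts of cells that share a mouse and a plate. With Mmrn1 the correlation was 0.31 and with Prox1 0.04.

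Ccl21a moved with depth. The highest Ccl21a count of any of the 1615 cells was in a lymphatic cell, and 32 of the 87 were within 25% of it, at depths from 155026 to 943761 gene counts, a 6.09-fold range. Its CPM fell as depth rose, with a Spearman rho of -0.66 over the 87 cells, whereas the rho for Mmrn1 was -0.01, for Lyve1 -0.18 and for Reln 0.13. After centring within mice, the genes most like Ccl21a were CT010467.1, AY036118, mt-Rnr2, Gm42418 and Tmsb4x, with rho from 0.52 to 0.59, and the first 4 of these had rho with depth of -0.94 to -0.89. The least like it were Klhl4, Gm47308, Ccdc124, Gm42928 and Eif5a, from -0.44 to -0.37. Cells of different depth cannot therefore be ordered by their Ccl21a level, and its level in the sums is subject to the same limit. The reason for the highest count was not tested.

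**Figure D5:**
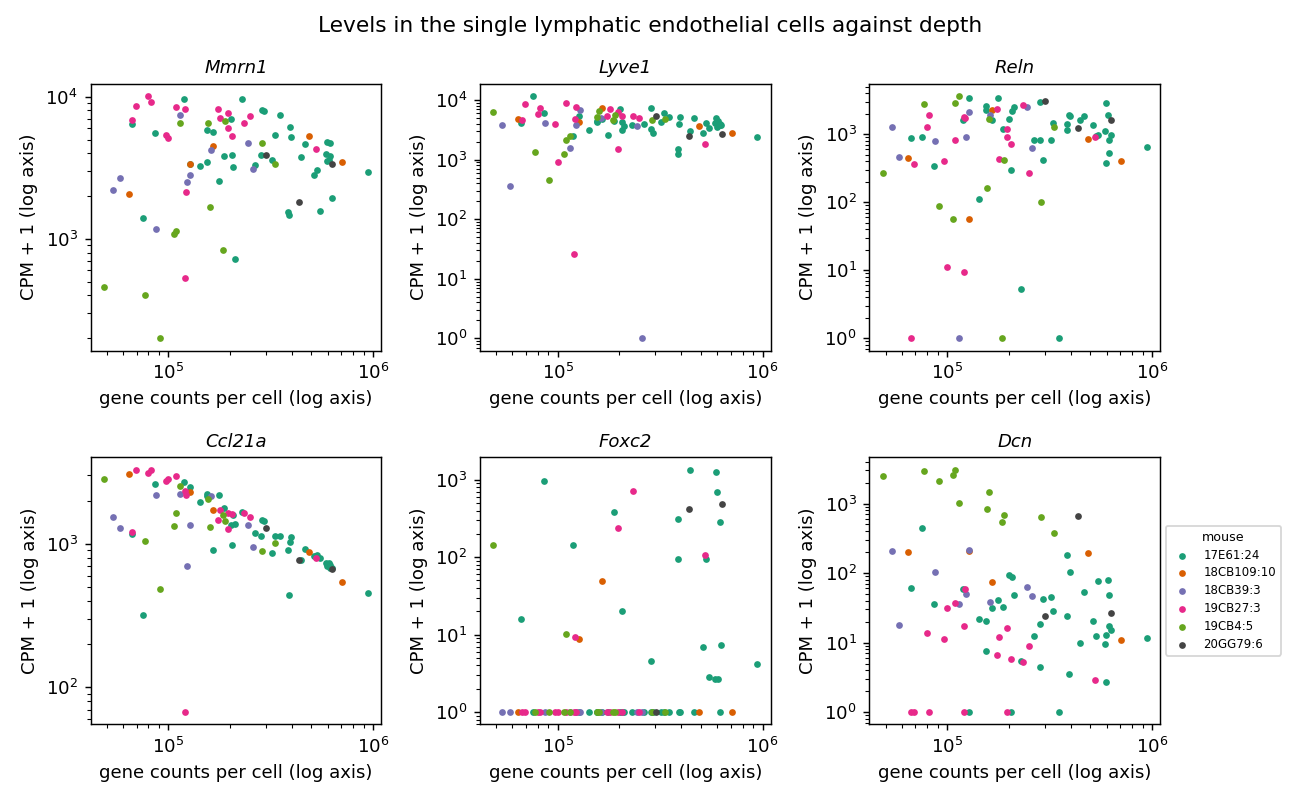
Level of 6 genes in each of the 87 lymphatic cells, in CPM + 1, against gene counts per cell, both on log axes and coloured by mouse. Ccl21a falls along a line as depth rises, Foxc2 is at 0 in most cells, and Dcn is highest in mouse 19CB4:5.

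Foxc2 had counts in 29 of the 87 cells and reached at least 50 CPM in 16 cells from 4 mice. Of these, 10 came from the 2-plate PDGFRbGFP mouse, 3 from 19CB27:3, 2 from 20GG79:6 and 1 from 19CB4:5, with 0 from 18CB39:3 and 18CB109:10. In those 16 cells Gja1, which encodes connexin 43, had a median of 590.1 CPM against 194.6 CPM in the other 71, and Pdpn 186.3 CPM against 697 CPM. Gata2 reached 50 CPM in 7 of the 16 and in 7 of the 71. Other valve genes did not follow: Itga9 reached 50 CPM in 5 of the 16 and 31 of the 71, Efnb2 in 2 and 19, and Celsr1 in 2 and 13. Lyve1 was at or above 50 CPM in all 16. The split was made on the same cells, so these medians carry no test.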

How the data were processed

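Whole-number counts of reads per gene were deposited by the authors for 1615 single cells, each a sample of its own, from 11 mice. Per the submitters' processing notes, bcl2fastq, Bowtie, Bowtie2, Subread and featureCounts were used, with the builds GRCm38 and mm10; the sources used here do not give their roles, strand use or the handling of duplicate reads. The tissue is labelled colon, although the protocol text also names heart. Of 46517 gene rows, 46005 were matched to symbols; 92 spike-in rows were left out. CPM is a count scaled to 1000000 gene counts of a cell or of a sum. The members and all gene lists were chosen with earlier results of these data known.

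Counts were summed per mouse and class, for mice with at least 5 cells in both, and tested with edgeR 4.0.16 in R 4.3.3 (TMM scaling, filterByExpr, robust quasi-likelihood fit, mouse as block, 4 residual degrees of freedom). P-values were adjusted by Benjamini-Hochberg over all genes tested, at a threshold of 0.05, without the genes of either gate. The block is the animal itself, since both classes came from the same mice. The mean ± SD is over 5 mice. Exact binomial 95% intervals and the limit for a count of 0 (3 counts) cover counting error only. Doublets were not called. An alternative left out cells in which 2 or more markers of another class reached 100 CPM. Blood endothelium was not counted as another class. Other alternatives were DESeq2 1.42.0, limma 3.58.1, other scaling, filters and gates, deeper cells, no block, and leaving out each mouse. Genes were named by rule from those called with 1 direction in every mouse and 50 CPM or more on average in whichever class was higher: the 10 largest fold changes each way and up to 3 members of each list each way by smallest p, without ribosomal, mitochondrial and predicted genes. The gate genes and markers, the 10 genes highest above all other cells, the 5 genes most and least like Lyve1 and Ccl21a over cells, and list members were also named, as were the genes compared between cells with and without Foxc2, a split chosen after the values were seen. The scripts were tested on simulated data. Promoters are those of RefSeq for GRCm38.p6. Some list members counted in the totals are not reported here by name.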

Additional observations from a re-analysis of the deposited data

Results flagged for a closer look

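For 13 of 85 genes tested, the lymphatic sum of 1 mouse lay far from those of the other 4, by the gap to its nearest neighbour over the whole range; chance alone flags about 1 in 20 groups. In mouse 18CB109:10, which gave 5 cells, Gpm6a stood at 59.9 CPM against 454.3 to 869.6 CPM in the others, and Acvrl1 at 18.03 CPM against 170.5 to 371.4 CPM. In mouse 18CB39:3 Slc45a3 stood at 26.8 CPM against 312.2 to 529 CPM.

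The other 10 were high in mouse 19CB4:5, whose 12 lymphatic cells all held markers of another class. Sparcl1 stood at 505.4 CPM there against 34.2 to 57.4 CPM, Jam2 at 59.2 CPM against 5.69 to 8.88 CPM, and Sox17 at 53.3 CPM against 1.29 to 4.18 CPM. Ramp3 stood at 30.1 CPM against 2.39 to 4.32 CPM, and Col15a1 at 27.99 CPM against 1.37 to 3.25 CPM. All 10 genes flagged in this mouse were called lower in lymphatic than in blood endothelial cells. S1pr4 stood at 14.5 CPM against at most 1.15 CPM, Ssh3 at 10.8 CPM against at most 0.576 CPM, and Jag2 at 8.07 CPM against at most 0.792 CPM. Gulp1 stood at 7.54 CPM against at most 0.342 CPM and Crispld1 at 2.15 CPM against at most 0.144 CPM. Blood endothelium was not counted as another class. The part of other cells in these values, blood endothelial cells included, was not tested.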

How the results depend on the processing

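Of the genes tested between lymphatic and blood endothelial cells, 3.66% were called. The share became 16.09% with DESeq2, 5.66% with limma, 3.14% without the filter on low counts, where more genes were tested, 2.47% in deeper cells, on 4 mice, and 1.92% without cells holding markers of another class, on 3 mice. These settings called 2046 genes with DESeq2, 797 with limma and 799 without the filter, against 515. Leaving out 1 mouse gave 1.58% to 3.04%. Without the replicate block, which pairs the sums of each animal, 4.62% were called, and 78.6% of the 515 genes were among them. Of the called genes 40.6% were higher, and 61.2% with limma, under which the median of all genes moved by 0.76 on the log2 scale; without the block 49.8% were higher and it moved by 0.64. No gene that the rule named and that was called in the main fit or the alternative changed sign between them. Of the fits of these named genes 13.8% lost the call, 1020 kept their side of the threshold and 1 gained a call. The most calls were lost without cells holding markers of another class, on 3 mice: 25 genes lost the call and 54 kept their side. Under that setting leukocyte traffic kept 6 higher and 3 lower genes. VEGF and angiopoietin signalling gave 0 higher and 3 lower, and junction genes 2 and 3. Lipid handling gave 0 and 3, and Notch, BMP and TGF-beta signalling 0 and 2. Other list members given in the text were not checked for a change of sign. The count of 48 genes above all other cells ran from 40 to 68 over the alternatives and from 52 to 64 without 1 mouse. Settings with fewer mice are easier to meet, since the difference must hold in every mouse. Fewer mice entered where stated, and no other cause of these changes was tested. The comparison of the sexes was not run, because the 2 female mice gave 0 lymphatic cells. With 4 residual degrees of freedom, a gene that was not called is not shown to be alike in both classes.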
